A study of Mus musculus with 12 samples.

Results

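Long non-coding RNA genes were followed in N9, an established mouse cell line of microglia, which are macrophages that reside in the brain. The set holds the 155 genes that the count table classes as lincRNA, antisense, processed transcript, bidirectional promoter lncRNA, sense intronic or sense overlapping and that averaged at least 50 raw counts over the 3 libraries of at least 1 group. They were chosen from 9677 genes of those classes, of which 6311 had no count in any library, and from 54532 genes in all. The set comprised 69 lincRNA, 47 processed transcript, 29 antisense, 7 bidirectional promoter, 2 sense intronic and 1 sense overlapping genes. Because raw counts chose the genes, their levels are given as a description.

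The series asks how microglia use sugars, and RNA was sequenced from 4 groups of 3 libraries. Cells in high fructose (15 mM) or high glucose (15 mM) medium received LPS, bacterial lipopolysaccharide, at 1 µg/ml. Cells in control medium, which holds 3 mM glucose and 5 mM fructose, were sampled with the same LPS or without it. Cells spent 18 h in their medium, and LPS, where given, was then present for 6 h; no raised-sugar group without LPS is listed, and whether 15 mM is a final or an added amount is not stated. The labels do not say that the libraries of a group are separate cultures, so every p-value reflects the spread among these libraries alone, which may be technical. Libraries held 15453776 to 17956772 counts. Of 14 markers of microglia and macrophages, 9 averaged over 1 FPKM (fragments per kilobase of gene, scaled for library size), and the list summed to 888 to 918 FPKM in high fructose with LPS, 833 to 883 in high glucose with LPS, 892 to 959 in LPS and 830 to 870 in control. Cd68 (508 FPKM) and Spi1 (141 FPKM) were the highest of that list. Cx3cr1 (0.509 FPKM), Aif1 (0.217 FPKM), Fcrls (0.125 FPKM), P2ry12 (0.0776 FPKM) and Sall1 (0.000881 FPKM) averaged under 1 FPKM, and Tmem119 averaged 3.68 FPKM. Markers of lymphocytes summed to at most 0.145 FPKM, of endothelial cells to at most 0.518 FPKM and of fibroblasts to at most 2.56 FPKM in any library, with Cd3e and Cldn5 at 0, while lists for neurons, astrocytes and oligodendrocytes summed to between 3.32 and 14.1 FPKM, with Sox10 and Olig2 at 0. The highest genes on the last lists were Gja1 (7.72 FPKM) and Aldh1l1 (5.03 FPKM) of astrocytes, Mbp (3.75 FPKM) of oligodendrocytes and Syn1 (2.62 FPKM) of neurons.

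Long non-coding RNAs are transcribed and spliced much like messenger RNAs but are not known to encode a stable protein. Some act in the nucleus, as Malat1 does in nuclear speckles and Neat1 in paraspeckles, some carry small nucleolar RNAs (snoRNAs) or microRNAs in their introns, and some are read from the promoter of a coding gene in the opposite direction. In macrophages, signals through Toll-like receptor 4, the LPS receptor, are known to induce several of them, among them lincRNA-Cox2 beside Ptgs2, the gene of the inducible cyclooxygenase.

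RefSeq promoter windows are shown for the genes that the results turn on. Each runs from 250 bases before the RefSeq start to 50 bases from it on, so that base 251 is the start, and capitals mark bases inside a match to any of 6 motifs searched on both strands. The motifs were AANNGAAA, which resembles sites of interferon regulatory factors, its stricter form preceded by GA, TTCNNNGAA (STAT-like), TGANTCA (AP-1-like), the NF-kB consensus and TATAAA. Every match to the stricter form is also a match to AANNGAAA. The windows, on GRCm38.p6, are Gm20559 (chr6:3346089-3346388, minus strand), the largest well-covered rise under LPS; Oasl1 (chr5:114922990-114923289, plus strand), the coding gene whose RefSeq start lies 37 bases from the start of Gm13822 in the count table, on the other strand, where the RefSeq start of Gm13822 is 1016 bases from that start; Map2k3os (chr11:60931818-60932117, minus strand), whose window shares 286 bases with that of Map2k3; and A930007I19Rik (chr19:29521938-29522237, minus strand), the largest fall in high fructose, whose RefSeq start is not the start in the count table.
Gm20559: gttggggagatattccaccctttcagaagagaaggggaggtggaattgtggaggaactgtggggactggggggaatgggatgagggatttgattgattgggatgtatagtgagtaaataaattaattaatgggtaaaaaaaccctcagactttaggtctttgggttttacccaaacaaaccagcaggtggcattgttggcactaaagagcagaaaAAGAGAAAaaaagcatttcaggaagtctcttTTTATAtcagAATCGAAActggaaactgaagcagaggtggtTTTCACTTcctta
Oasl1: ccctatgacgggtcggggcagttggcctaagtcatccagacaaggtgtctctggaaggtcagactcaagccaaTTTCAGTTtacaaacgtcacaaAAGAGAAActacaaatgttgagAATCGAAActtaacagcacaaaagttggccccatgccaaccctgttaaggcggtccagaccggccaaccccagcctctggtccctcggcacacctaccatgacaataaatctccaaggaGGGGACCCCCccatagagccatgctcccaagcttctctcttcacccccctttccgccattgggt
Map2k3os: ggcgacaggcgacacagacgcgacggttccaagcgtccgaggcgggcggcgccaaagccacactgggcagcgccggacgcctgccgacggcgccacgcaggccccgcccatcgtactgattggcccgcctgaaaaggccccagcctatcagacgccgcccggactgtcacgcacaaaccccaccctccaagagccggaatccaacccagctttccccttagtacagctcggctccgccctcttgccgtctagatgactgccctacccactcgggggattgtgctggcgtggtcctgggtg
A930007I19Rik: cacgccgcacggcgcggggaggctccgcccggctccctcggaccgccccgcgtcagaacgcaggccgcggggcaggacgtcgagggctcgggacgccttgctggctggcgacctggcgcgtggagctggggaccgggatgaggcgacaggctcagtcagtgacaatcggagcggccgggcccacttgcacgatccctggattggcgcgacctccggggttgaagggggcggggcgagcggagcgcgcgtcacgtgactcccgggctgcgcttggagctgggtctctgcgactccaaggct

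The Gm20559 window held 3 AANNGAAA matches and a TATAAA match, on the other strand, across the start, at 41.3% G and C. The Oasl1 window held 3 AANNGAAA matches and 1 NF-kB consensus match. The windows of Map2k3os and A930007I19Rik held none of the 6 motifs and were rich in G and C, at 67.7% and 73.7%, with 30 and 40 CG pairs. Among 32851 RefSeq windows, AANNGAAA matched 23.9%, the NF-kB consensus 4.51%, TATAAA 13.6%, TTCNNNGAA 8.30%, TGANTCA 7.81% and the stricter form of AANNGAAA 3.44%. A window starting within 100 bases of the start in the count table was found for 65 of the 155 genes, and 7 of those rose under LPS. AANNGAAA matched 3 of the 7 and TATAAA 1, and the other 4 motifs matched none of them.

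The 155 genes took 0.274% to 0.315% of all counts in a library. The share was 0.275%, 0.282% and 0.315% in high fructose with LPS, 0.286%, 0.293% and 0.315% in high glucose with LPS, 0.274%, 0.290% and 0.300% in LPS and 0.285%, 0.286% and 0.290% in control. The groups overlapped, and the library numbered 1 was lowest in each of them. The 15 genes that RefSeq lists as protein-coding, among them Cct6a, a chaperonin subunit, and Ifi30, a lysosomal thiol reductase, held 35.4% of the counts of the set, so the label does not hold for part of the signal. RefSeq lists 109 as lncRNA and 3 as pseudogenes, and 28 had no RefSeq match.

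Per length, the genes were lower than coding genes. Their median was 2.58 FPKM over the 12 libraries, with a range of 0.0438 to 184 FPKM, against a median of 7.26 FPKM in 11305 tested protein-coding genes. Only 20 genes averaged 10 FPKM or more, and 24 were under 1 FPKM. Ifi30 led with 184 FPKM and Cct6a followed with 157 FPKM, both coding in RefSeq. Next came Gm26917 at 77.4 FPKM and Gm10076 at 73.5 FPKM. Gm10076 is a RefSeq pseudogene that shares 99.7% of its transcript with the ribosomal protein gene Rpl41, so its reads could not be assigned with certainty. The other leading genes were 2410006H16Rik (50.8 FPKM), a snoRNA host, 4930430E12Rik (47.1 FPKM), Gm17201 (36.3 FPKM), 1810058I24Rik (27.7 FPKM, coding in RefSeq), 2900097C17Rik (27.5 FPKM) and Malat1 (25.2 FPKM). 2900097C17Rik is Norad, which binds Pumilio proteins, and 51.6% of its transcript is shared with Gm7292.

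Membership was not equal across groups. A mean of 50 counts was reached in all 4 groups by 103 genes, in 3 groups by 16, in 2 by 15 and in 1 by 21, of which 14 reached it in control alone. A further 17 reached it with LPS present and not in control. By construction the 14 lean towards a fall under LPS and the 17 towards a rise. Just inside the threshold were C430042M11Rik, 1700007L15Rik and 4930589L23Rik with highest group means of 50, 50.7 and 51.3 counts, and just outside were Gm42595, 4930455G09Rik and Gm7160 with 49, 48.3 and 47.3 counts.

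Under LPS, 20 of the 155 genes rose and 10 fell (edgeR's quasi-likelihood test, adjusted p below 0.05), where 15.2% of all 12766 genes tested rose and 13.6% fell. All 155 passed the filter on low counts. Among the 103 genes at 50 counts in every group, 13 rose and 9 fell. The median log2 fold change was 0.02 over the 155 genes and -0.0040 over all genes tested, and the median size regardless of sign was 0.23 against 0.18. The median standard error was 0.19 for the long non-coding genes and 0.09 for all genes, so the genes of this set were measured less precisely. By class, 6 of 29 antisense, 6 of 47 processed transcript, 5 of 69 lincRNA and 3 of 7 bidirectional promoter genes rose, and 2, 1, 7 and 0 fell. Differences between the classes were not tested. Of 411 tested genes of the same biotypes below the threshold of 50 counts, 12 rose and 8 fell.

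**Figure D1:**
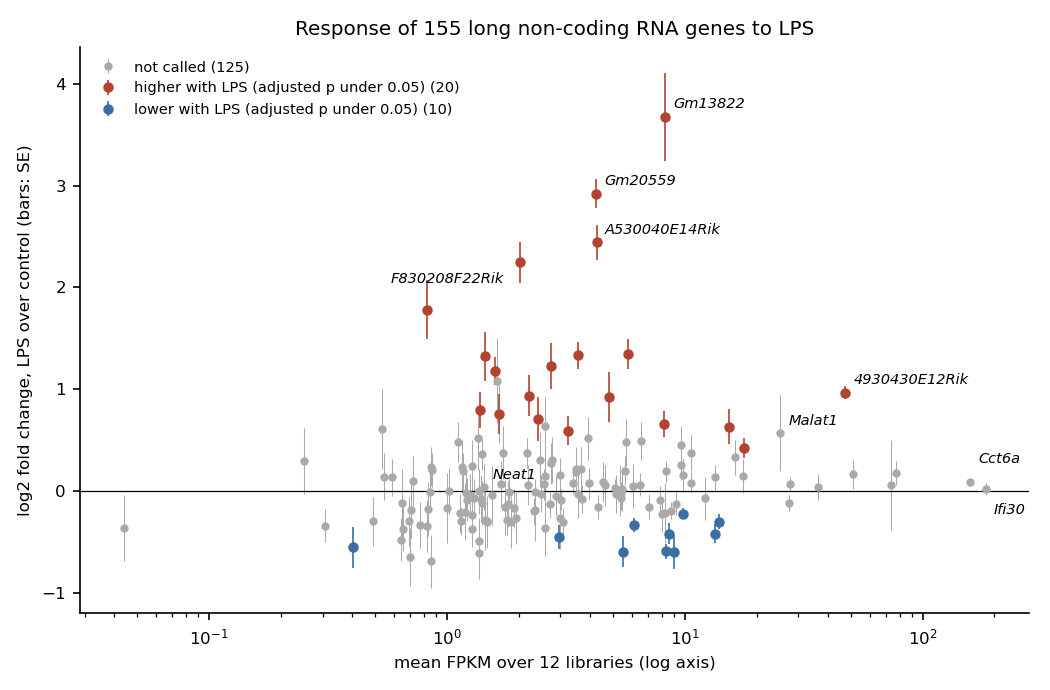
Each point is 1 of the 155 genes, with its mean FPKM over 12 libraries on a log axis and its log2 fold change, LPS over control, with its standard error. The 20 genes that rose reach 3.68, while the 10 that fell lie between -0.60 and -0.23.

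Gm13822 had the largest rise. It is read from the strand opposite Oasl1, an interferon-induced gene related to the 2′-5′ oligoadenylate synthetases. Its normalised count (CPM, scaled to library size) was 3.72, 4.05 and 3.82 CPM in LPS, against 0.344, 0.279 and 0.266 CPM in control. The groups stood well apart, with a 12.8-fold difference (log2 fold change 3.68 ± 0.43, SE, adjusted p = 2.98e-06). Oasl1 itself rose by 4.44 ± 0.07 on the log2 scale (adjusted p = 2.9e-18). The exons of Gm13822 overlap Oasl1 over 11.0% of their length, and the sources used here do not give the strand setting of the counting, so reads of the pair cannot be told apart there.

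Gm20559, a processed transcript on chromosome 6, rose 7.57-fold. It had 26.7, 26.0 and 28.7 CPM in LPS, against 2.81, 4.52 and 3.40 CPM in control. Every LPS library was above every control library (log2 fold change 2.92 ± 0.14, adjusted p = 1.68e-11). The nearest coding gene, Samd9l, an interferon-inducible gene with antiviral activity, lies 26129 bases away on the same strand and rose by 2.93 ± 0.09.

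A530040E14Rik had 12.8, 12.8 and 13.7 CPM in LPS, against 3.21, 1.73 and 2.28 CPM in control (log2 fold change 2.44 ± 0.17, adjusted p = 3.21e-09). Its groups did not overlap, but 57.4% of its transcript matches Sp110, an interferon-induced nuclear body gene that rose by 1.58 ± 0.10, so its reads are uncertain. F830208F22Rik, which overlaps the start of Pstpip2 on the other strand, had 8.13, 7.75 and 10.2 CPM in LPS, against 1.95, 1.56 and 1.97 CPM in control (2.25 ± 0.20, adjusted p = 8.7e-08). Pstpip2, whose loss causes autoinflammatory disease in mice, rose by 0.65 ± 0.14.

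Zfp469, listed as coding by RefSeq, had 3.47, 2.62 and 3.28 CPM in LPS, against 1.03, 0.67 and 1.01 CPM in control (1.78 ± 0.29). 4933432I03Rik had 7.75, 6.80 and 7.88 CPM in LPS, against 2.63, 3.07 and 3.08 CPM in control (1.35 ± 0.15). It lies 4775 bases from Kctd12, which encodes an auxiliary subunit of GABA-B receptors and rose by 1.31 ± 0.08. Gm26809 had 12.6, 12.3 and 11.5 CPM in LPS, against 4.98, 4.58 and 4.89 CPM in control (1.33 ± 0.14), while its neighbour Lsm8 showed a log2 fold change of -0.02 ± 0.11. G530011O06Rik, of whose exons 40.0% overlap Mid1 on the other strand, had 4.09, 5.49 and 5.01 CPM in LPS, against 2.41, 1.56 and 1.86 CPM in control (1.32 ± 0.24).

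Gm32089 had 3.35, 3.34 and 4.24 CPM in LPS, against 1.26, 2.07 and 1.33 CPM in control (1.23 ± 0.23). 5830432E09Rik had 12.3, 13.1 and 9.43 CPM in LPS, against 5.27, 5.25 and 4.83 CPM in control (1.18 ± 0.13). It is antisense to Ptpre, a receptor-type tyrosine phosphatase, which rose by 1.03 ± 0.07. For each of these 10 genes the LPS libraries lay above all control libraries. The other 10 that rose, by 0.42 to 0.96, also had no overlap between the groups.

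4930430E12Rik had 68.7, 64.9 and 61.4 CPM in LPS, against 32.6, 34.2 and 33.0 CPM in control (0.96 ± 0.06, adjusted p = 9.95e-10). Map2k3os had 10.8, 9.66 and 10.8 CPM in LPS, against 6.36, 6.31 and 7.12 CPM in control (0.66 ± 0.12, adjusted p = 0.000515). It starts 166 bases from Map2k3, a kinase of the p38 pathway that rose by 0.35 ± 0.05. Also in this group were 2500002B13Rik (0.94 ± 0.20), beside the histone deacetylase complex gene Sap30, Gm17749 (0.92 ± 0.24), F730043M19Rik (0.80 ± 0.17), Gm15496 (0.71 ± 0.22) and Ndufb1-ps (0.63 ± 0.17), which RefSeq lists as coding. These 5 were named after their values were seen. AC166110.4 (0.75 ± 0.20) matches the superoxide dismutase gene Sod2 over 100% of its transcript and could not be separated from it.

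**Figure D2:**
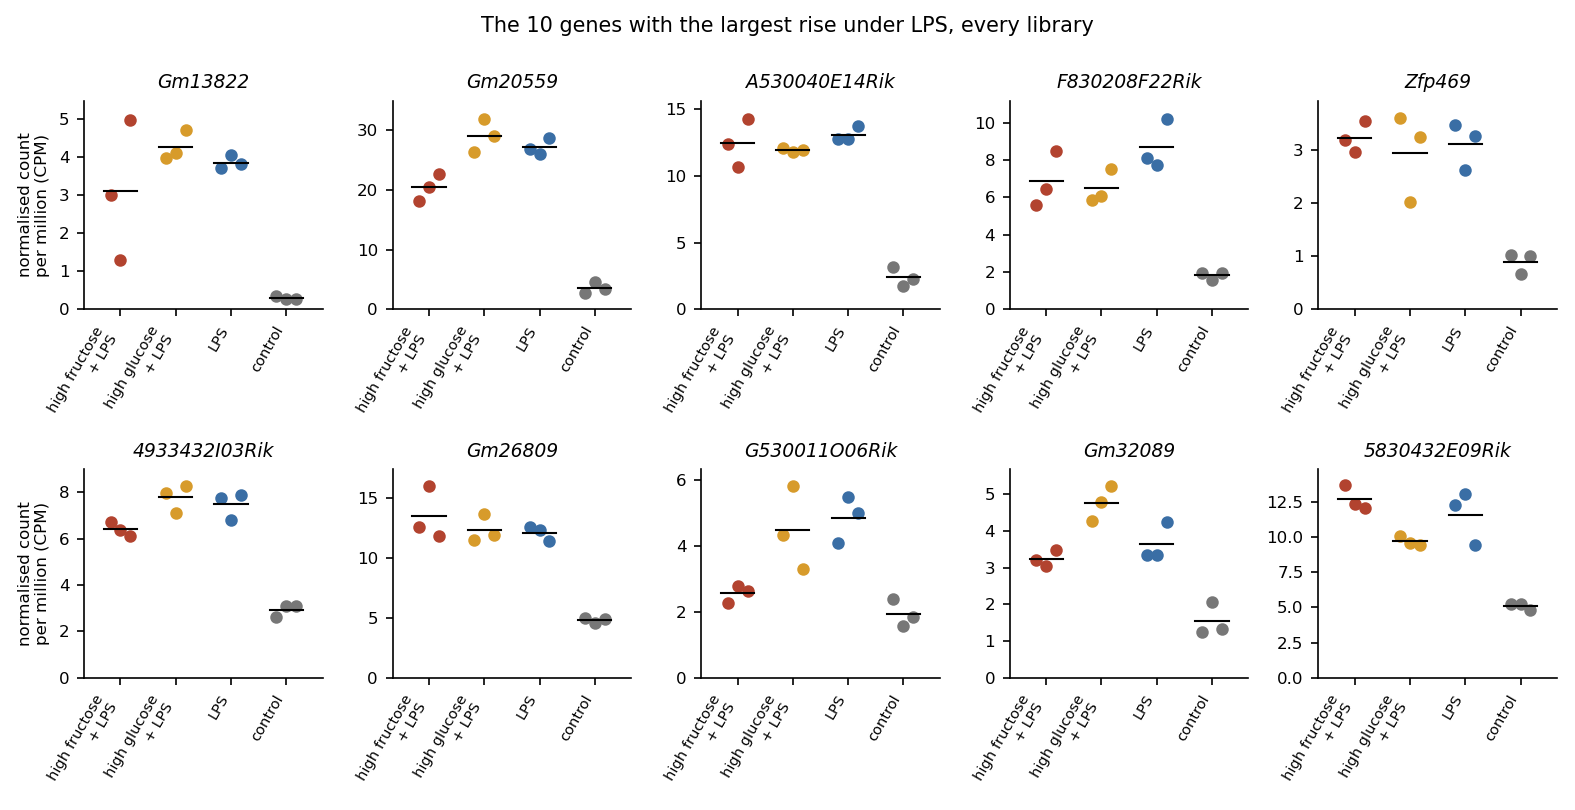
Normalised CPM of the 10 genes with the largest rise under LPS, 1 point per library and a bar at the mean of 3, with high fructose and LPS, high glucose and LPS, LPS, and control from left to right. The control points lie below all 3 LPS points in each panel, and Gm13822 in high fructose is spread from 1.30 to 4.99 CPM.

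The falls under LPS were smaller, from -0.60 to -0.23 on the log2 scale. 4933404O12Rik had 35.1, 35.2 and 35.2 CPM in LPS, against 51.5, 52.8 and 54.9 CPM in control (-0.59 ± 0.08, adjusted p = 9.55e-06). 1700020I14Rik, which RefSeq names Oip5os1 and which is known as Cyrano, an RNA that binds the microRNA miR-7, had 46.6, 46.5 and 53.6 CPM in LPS, against 60.9, 62.1 and 61.7 CPM in control (-0.33 ± 0.07, adjusted p = 0.00123). Both genes had lower values in every LPS library. Oip5, a centromere gene that lies 2010 bases from 1700020I14Rik, fell by 0.60 on the log2 scale.

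Brip1os had 65.6, 58.8 and 63.7 CPM in LPS, against 74.5, 71.8 and 73.6 CPM in control (-0.23 ± 0.05, adjusted p = 0.00374). Brip1, a helicase of DNA repair, fell by 0.68, while Ints2, whose gene lies beside Brip1, gave no call (-0.10 ± 0.07). AU020206 had 36.8, 45.1 and 43.2 CPM in LPS, against 52.7, 60.7 and 54.1 CPM in control (-0.42 ± 0.09). G730013B05Rik had 39.4, 40.4 and 38.1 CPM in LPS, against 45.6, 47.5 and 52.3 CPM in control (-0.30 ± 0.07). Groups did not overlap for Brip1os, AU020206 or G730013B05Rik. Neighbours did not all fall: of 9 tested for the 10 genes that fell, 3 fell and 2 rose. Akap13, near AU020206, rose by 0.48 ± 0.07, and Anxa3, near Gm33370, rose by 0.27 ± 0.06.

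Gm33370 and D5Ertd605e had log2 fold changes of -0.60 ± 0.17 and -0.60 ± 0.16, Tmem250-ps of -0.42 ± 0.10 and Trerf1, coding in RefSeq like Tmem250-ps, of -0.46 ± 0.12. A830082K12Rik was at the edge of the threshold (-0.55 ± 0.20, adjusted p = 0.0472) and lost its call in 9 of 12 alternative fits, 6 of them with a library left out, where the adjusted p was 0.0654 to 0.133. Gm33370 lost its call without control library 3 and Ndufb1-ps without control library 1, while Gm15496 lost its call without control library 3, LPS library 1 or LPS library 3.

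The 125 genes with no call had log2 fold changes from -0.69 to 1.08. The highest was 4930589L23Rik, a gene just inside the count threshold, with 3.10, 2.33 and 2.09 CPM in LPS, against 1.37, 0.335 and 1.81 CPM in control (1.08 ± 0.42, adjusted p = 0.0631). Its groups did not overlap, but its standard error was above the median of 0.19 for the set.

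The response was set beside that of the nearest coding gene, tested for 133 of the 155. Across genes, Pearson's r between the log2 fold changes was 0.63 and Spearman's rho 0.42; the points come from the same libraries and are not independent. With the neighbour overlapping or within 5000 bases, r was 0.70 and rho 0.52 over 95 genes. Over the other 38 they were 0.54 and 0.17. Of the 155 genes, 58 overlap the span of a protein-coding gene. With the strand setting unknown, such pairs may share reads, and the part of this in r and rho was not tested. Without the 4 largest rises, r was 0.32 over 129 genes, so the size of r rests largely on those 4. Spearman's rho over the same 129 genes was 0.36, near the 0.42 over all 133. Of the 20 genes that rose, 18 had a tested neighbour, of which 9 rose and 0 fell. The 10 that fell had 9 tested neighbours, of which 2 rose and 3 fell. The 125 genes with no call had 106 tested neighbours, of which 22 rose and 12 fell.

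**Figure D3:**
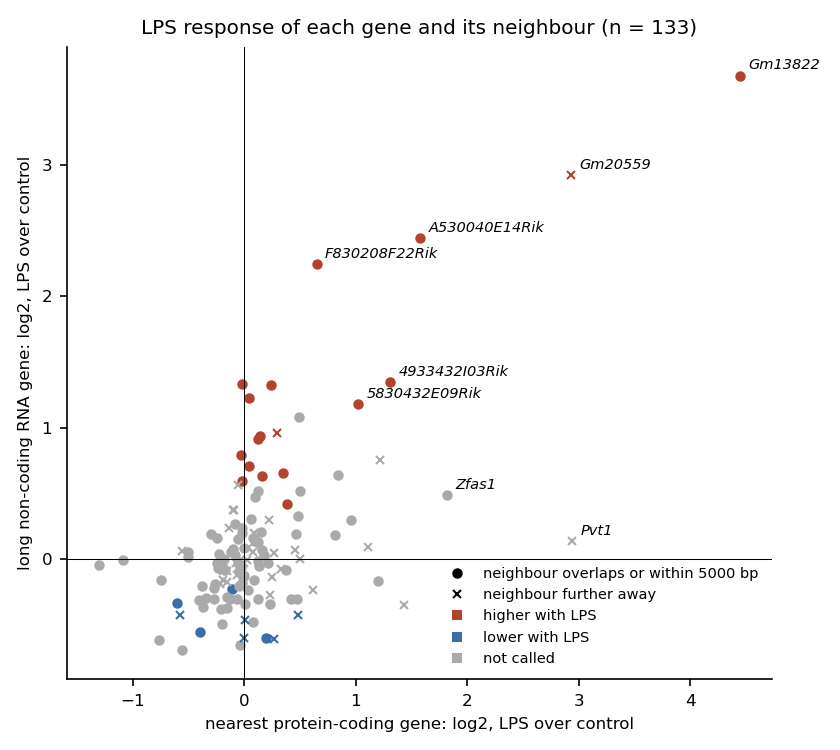
For 133 genes, the log2 fold change of the nearest protein-coding gene, LPS over control, is on the horizontal axis and that of the long non-coding gene on the vertical axis. Gm13822, Gm20559 and A530040E14Rik lie high with their neighbours, while Pvt1 and Zfas1 lie near the bottom right, at 0.14 and 0.49 beside neighbours at 2.94 and 1.82.

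A strong neighbour did not always come with a call. Pvt1, which lies 47612 bases from the transcription factor gene Myc, had 2.92, 3.70 and 5.25 CPM in LPS, against 3.32, 3.63 and 3.82 CPM in control (0.14 ± 0.23, adjusted p = 0.714), while Myc rose by 2.94 ± 0.13. Ptgs2os2, known as lincRNA-Cox2, had 3.60, 4.0 and 2.69 CPM in LPS, against 1.95, 2.07 and 2.07 CPM in control. Its libraries did not overlap, but the test missed the threshold (0.75 ± 0.29, adjusted p = 0.0582), and it passed in 3 of 12 alternative fits, among them the fit without LPS library 3. Ptgs2 rose by 1.21 ± 0.06.

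Lists of known RNAs were counted beside the 15.2% of all genes tested that rose and the 13.6% that fell, and with 6 to 8 genes each their shares were not tested against these. Of 8 genes of the set from a list of lncRNAs studied in innate immunity, A530040E14Rik rose (12.5%) and the others gave no call. Of 7 from a list of nuclear and chromatin lncRNAs, 0 were called by edgeR or DESeq2, with 0 higher and 1 lower at an unadjusted p below 0.05. Of 6 from a list of RNAs linked to p53 and growth, 0 were called by edgeR or DESeq2 and 0 passed that unadjusted p. At the same unadjusted p, 2471 of all 12766 genes tested were higher and 2365 lower.

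Well-known nuclear RNAs varied widely within groups. Malat1 had 116, 227 and 332 CPM in high fructose with LPS, 117, 181 and 302 CPM in high glucose with LPS, 89.6, 180 and 238 CPM in LPS, and 78.8, 141 and 123 CPM in control. The library numbered 1 was the lowest in each group, and the groups overlapped (LPS over control 0.57 ± 0.37, adjusted p = 0.287). With a library left out the value ranged from 0.24 to 0.87. It was called in 2 of 12 alternative fits, among them the fit without the filter on low counts (adjusted p = 1.97e-20). Firre, an X-linked RNA involved in nuclear organisation, had 3.51, 5.76 and 5.78 CPM in high fructose with LPS, 3.48, 4.23 and 6.24 CPM in high glucose with LPS, 1.55, 5.19 and 7.94 CPM in LPS, and 2.63, 2.90 and 4.09 CPM in control, again lowest in library 1 of each group. Neat1 had 17.4, 31.7 and 28.6 CPM in LPS, against 24.3, 27.2 and 24.2 CPM in control (0.04 ± 0.23, adjusted p = 0.924).

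The library numbered 1 was lowest in all 4 groups for 6 of the 155 genes (3.87%) and for 5.28% of all genes tested. The library numbered 3 was highest in all 4 groups for 7 of the 155 (4.52%), among them F830208F22Rik, Snhg20 and Firre, and for 1.14% of all genes tested. The share of counts in mitochondrial genes was also lowest in library 1 of each group, at 0.564%, 0.518%, 0.581% and 0.618% in high fructose with LPS, high glucose with LPS, LPS and control, where the other libraries had 0.689% to 0.788%. The part of this in the spread of Malat1 and Firre was not tested.

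Genes that host snoRNAs gave no call in edgeR. The annotation places a snoRNA inside 17 of the genes on the same strand. Of these, 0 were called under LPS by edgeR, where 15.2% of all genes tested rose and 13.6% fell. At an unadjusted p below 0.05, 4 of the 17 were higher and 1 lower, beside 2471 and 2365 of all 12766 genes tested. The log2 fold change was positive in 14 of the 17, with a median of 0.16, and in 80 of the 155 genes. Differences from these shares were not tested. Zfas1, host of Snord12, had 16.6, 17.1 and 25.2 CPM in LPS, against 10.8, 14.9 and 16.3 CPM in control (0.49 ± 0.19, adjusted p = 0.0622). Every LPS library lay above every control library, and DESeq2 called it, 1 of the 17. It was also called in 4 of the other 11 alternative fits, and its adjusted p ranged from 0.000232 to 0.358 over all 12. Znfx1, an interferon-inducible RNA helicase whose gene overlaps Zfas1, rose by 1.82 ± 0.06.

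Gas5, a growth-arrest RNA that carries several box C/D snoRNAs, had 26.8, 37.3 and 43.7 CPM in LPS, against 28.3, 34.5 and 33.9 CPM in control (0.16 ± 0.17, adjusted p = 0.544). Snhg1 had 23.6, 24.7 and 29.7 CPM in LPS, against 21.1, 22.1 and 25.0 CPM in control (0.19 ± 0.10, adjusted p = 0.191). Their groups overlapped, as did those of Snhg12 (0.16 ± 0.16). Snhg17 (0.36 ± 0.15), Snhg8 (0.37 ± 0.18) and Snhg6 (0.46 ± 0.18) had positive values that also missed the threshold.

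**Figure D4:**
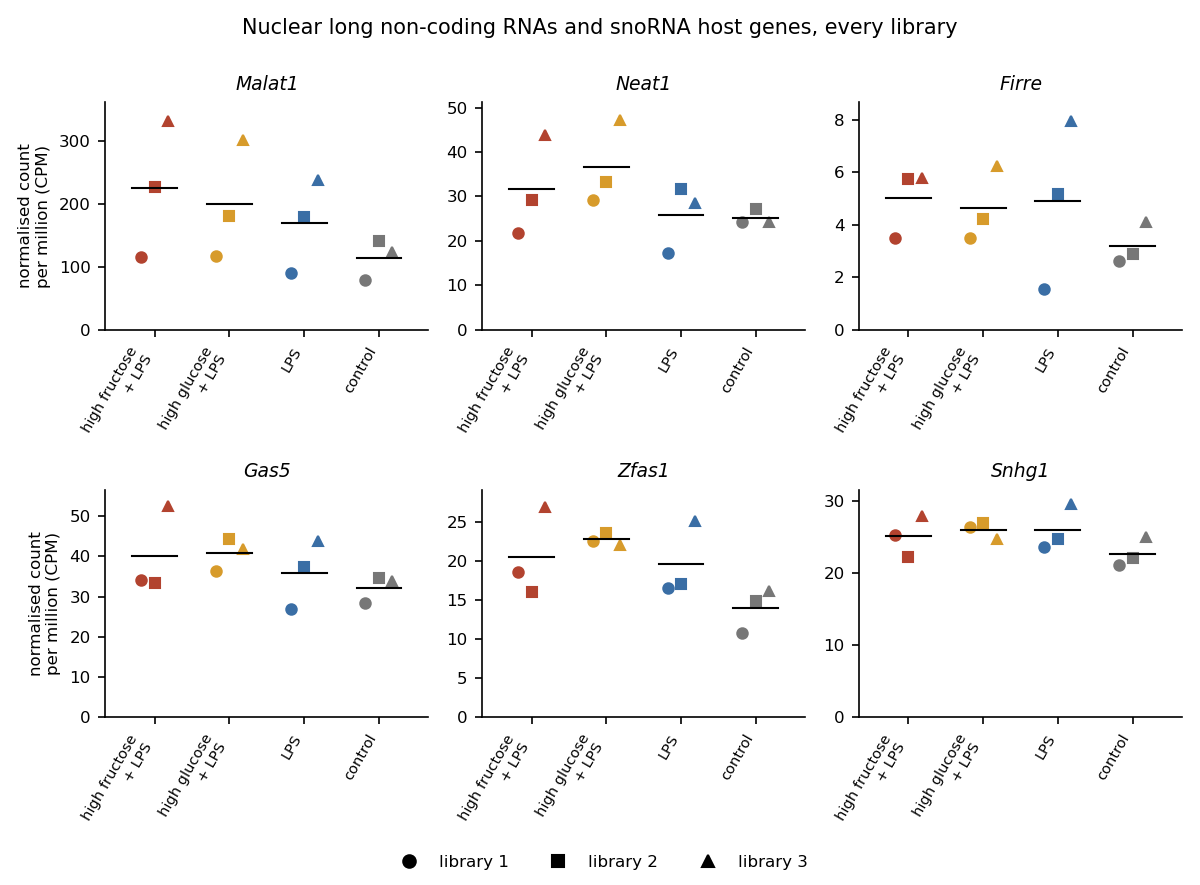
Normalised CPM of nuclear RNAs (Malat1, Neat1, Firre) and snoRNA hosts (Gas5, Zfas1, Snhg1) in high fructose and LPS, high glucose and LPS, LPS, and control from left to right, with 1 symbol per library number and a bar at the mean of 3. Malat1 spans 89.6 to 238 CPM within LPS and 78.8 to 141 CPM within control, and library 1 is its lowest in each group.

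Of the 5 genes with an annotated microRNA inside, 0 were called under LPS by edgeR or DESeq2, and 1 was higher and 0 lower at an unadjusted p below 0.05. Among all 12766 genes tested, 15.2% rose and 13.6% fell by edgeR, and 2471 were higher and 2365 lower at that unadjusted p. Mir22hg, host of Mir22, had 3.85, 5.01 and 8.23 CPM in LPS, against 3.09, 4.58 and 3.29 CPM in control (0.64 ± 0.28, adjusted p = 0.106), with overlapping groups. It was called in 3 of 12 alternative fits, among them the fit without LPS library 1 (0.86, adjusted p = 0.0389), and with a library left out its value ranged from 0.28 to 0.86. Dleu2, host of Mir15a and Mir16-1, had 1.74, 3.04 and 4.06 CPM in LPS, against 2.23, 2.96 and 2.02 CPM in control (0.30 ± 0.32, adjusted p = 0.558). Norad (2900097C17Rik, -0.12 ± 0.08) and Tug1 (0.03 ± 0.09), both widely expressed RNAs, were not called under LPS. Without LPS library 3 Norad was called (-0.22, adjusted p = 0.0384), and with a library left out its value ranged from -0.22 to -0.013.

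Genes of proteins that handle such RNAs were also counted, from lists of whole complexes and pathways, beside the same 15.2% and 13.6%, against which their shares were not tested. Of 15 tested genes listed as snoRNP proteins, which assemble with snoRNAs or act beside them in the nucleolus, 4 rose under LPS and 0 fell. They were Nop2 (0.25 ± 0.04), Npm1 (0.19 ± 0.05), Nop58 (0.15 ± 0.06, adjusted p = 0.0497 by edgeR) and Ncl (0.14 ± 0.04). Fbl, Nop56, Snu13, Dkc1, Nhp2, Nop10 and Gar1 were among those with no call. Of 16 nonsense-mediated decay factors, which remove many spliced non-coding transcripts, 4 rose and 1 fell; Smg1 (0.41 ± 0.10) was among those that rose, and Smg6 (-0.39 ± 0.08) fell. Of 12 paraspeckle proteins, Tardbp, an RNA-binding protein, rose (0.57 ± 0.04) and the others gave no call. Of 19 genes of nuclear RNA decay, Zcchc8 (-0.38 ± 0.08) and Exosc8 (-0.21 ± 0.07) fell. Of 15 genes of microRNA biogenesis and function, 3 rose and 2 fell, from Zc3h12a, the RNase Regnase-1 (3.56 ± 0.07), to Ago4 (-0.51 ± 0.13).

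High glucose under LPS gave no call in the set. Of the 155 genes, 0 rose and 0 fell by edgeR and by DESeq2, where edgeR called 0.587% of all genes tested higher and 0.971% lower. Beside 859 higher and 921 lower among all 12766 genes tested at an unadjusted p below 0.05, 7 of the 155 were higher and 5 lower. The median log2 fold change was 0.03, with a range of -0.77 to 0.57, and the median standard error of 0.19 limits what could be seen. The largest rise was in Lockd, beside the cell cycle inhibitor gene Cdkn1b, with 4.77, 4.72 and 5.99 CPM in high glucose with LPS, against 2.98, 3.64 and 3.82 CPM in LPS (0.57 ± 0.23, adjusted p = 0.266). Its groups did not overlap. Of the paraspeckle proteins, Tardbp was higher in high glucose (0.29 ± 0.04, adjusted p = 0.00227).

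High fructose under LPS, set against the same LPS libraries as high glucose, changed 6 of the 155 genes. A single gene rose and 5 fell, where 2.37% of all genes tested rose and 2.55% fell, 4.91% in either direction. The median log2 fold change over the set was -0.02.

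A930007I19Rik, a lincRNA on chromosome 19 whose start overlaps that of Ric1 and which runs away from it on the other strand, had the largest fall. It had 2.77, 3.22 and 3.15 CPM in high fructose with LPS, against 6.02, 7.93 and 4.48 CPM in LPS. The groups did not overlap (-1.01 ± 0.20, adjusted p = 0.00382), and the call held in all 12 alternative fits, with adjusted p from 5.17e-05 to 0.0314. It did not respond detectably to LPS itself (0.19 ± 0.18, adjusted p = 0.48), with 5.38, 5.25 and 5.47 CPM in control. Ric1, a component of a Golgi transport complex, showed -0.15 with an adjusted p of 0.188.

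Another 4 genes fell in high fructose. The 3 LPS libraries used here also enter the comparison of LPS with control, with the opposite sign, so high values in them favour a call in both. G530011O06Rik had 2.28, 2.79 and 2.63 CPM in high fructose with LPS, against 4.09, 5.49 and 5.01 CPM in LPS (-0.92 ± 0.23, adjusted p = 0.0274), and lost its call in 5 of the 6 fits that left a library out, all but the fit without LPS library 1. 4933412E12Rik, which starts beside Rab3ip in the opposite direction, had 6.23, 7.13 and 6.37 CPM in high fructose with LPS, against 11.1, 9.78 and 9.55 CPM in LPS (-0.62 ± 0.14, adjusted p = 0.0121), and lost its call without LPS library 1 or without high fructose library 1. In both genes the libraries of the groups stood apart. Control libraries had 2.41, 1.56 and 1.86 CPM of G530011O06Rik and 5.61, 7.09 and 7.44 CPM of 4933412E12Rik.

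Gm20559, the gene near Samd9l, had 18.1, 20.4 and 22.7 CPM in high fructose with LPS, against 26.7, 26.0 and 28.7 CPM in LPS (-0.41 ± 0.12, adjusted p = 0.0489). It lost its call in 5 of 6 fits that left a library out, where the adjusted p reached 0.18; the fit without high fructose library 3 kept it. Samd9l fell by 0.68 in the same comparison, with an adjusted p of 2.3e-05, and Oasl1 by 0.30 (adjusted p = 0.0023), whereas Gm13822, with 3.02, 1.30 and 4.99 CPM in high fructose with LPS against 3.72, 4.05 and 3.82 CPM in LPS, gave no call (-0.32 ± 0.32). 4930430E12Rik had 53.2, 53.4 and 53.9 CPM in high fructose with LPS, against 68.7, 64.9 and 61.4 CPM in LPS (-0.28 ± 0.06, adjusted p = 0.00853), and lost its call without LPS library 1. Gm49172, which overlaps the end of Ano6 on the other strand, rose, with 19.9, 21.3 and 20.5 CPM in high fructose with LPS, against 16.6, 16.6 and 15.2 CPM in LPS (0.35 ± 0.09, adjusted p = 0.0379). This call was lost in 9 of 12 alternative fits, with each of the 6 libraries left out and with DESeq2. Ano6, a phospholipid scramblase gene whose exons overlap 13.0% of those of Gm49172, rose by 0.23 in high fructose (adjusted p = 0.0139).

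**Figure D5:**
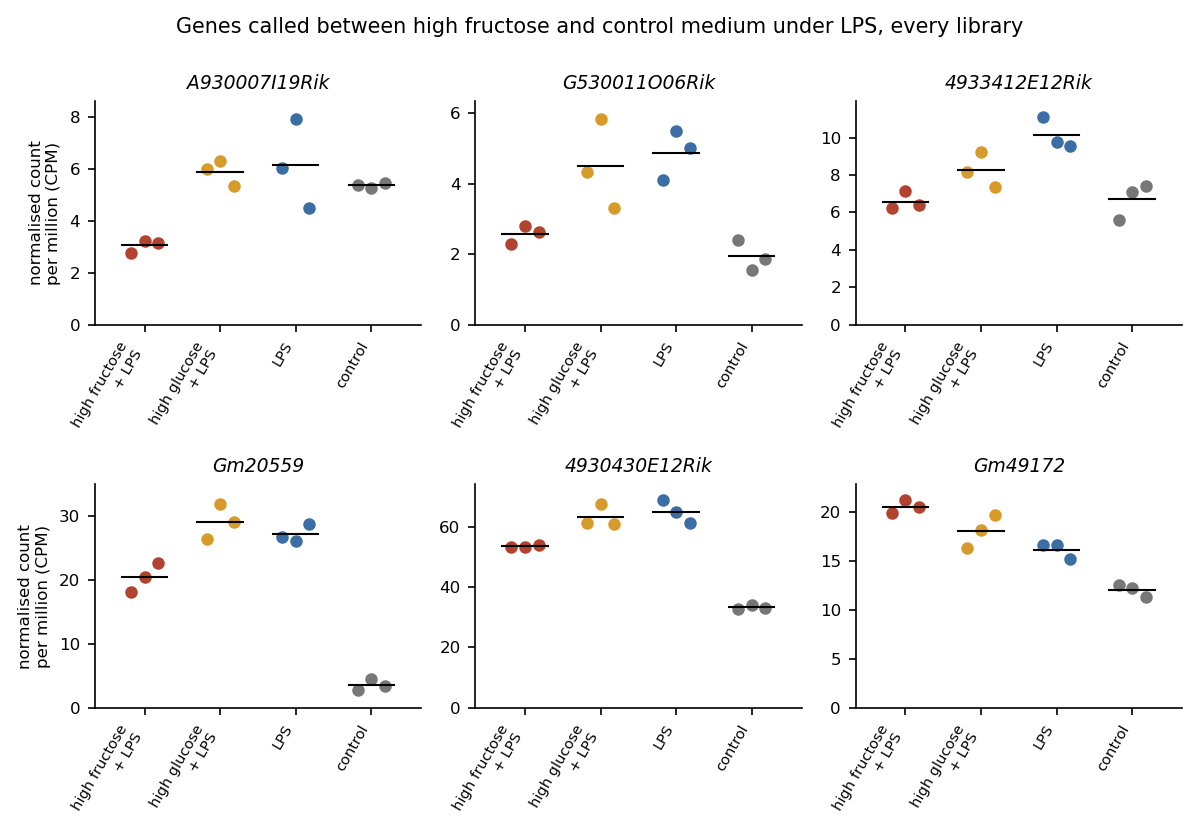
Normalised CPM of the 6 genes called between high fructose and control medium under LPS, in high fructose and LPS, high glucose and LPS, LPS, and control from left to right, with 1 point per library and a bar at the mean of 3. A930007I19Rik lies at 2.77 to 3.22 CPM in high fructose with LPS and at 4.48 CPM or more in every other library.

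High fructose was also set against high glucose, both under LPS. Of the 155 genes 0 rose and 3 fell, where 1.84% of all genes tested rose and 1.88% fell. For the rise, 3 of the 155 passed an unadjusted p of 0.05 in edgeR, beside 1006 of all 12766 genes tested. DESeq2 also called 0 of the 155 higher. A930007I19Rik had 2.77, 3.22 and 3.15 CPM in high fructose, against 5.99, 6.32 and 5.35 CPM in high glucose (-0.95 ± 0.20, adjusted p = 0.00946). Gm20559 had 18.1, 20.4 and 22.7 CPM in high fructose, against 26.3, 31.8 and 29.0 CPM in high glucose (-0.51 ± 0.12, adjusted p = 0.0171). 4930430E12Rik had 53.2, 53.4 and 53.9 CPM in high fructose, against 61.3, 67.5 and 60.9 CPM in high glucose (-0.24 ± 0.06, adjusted p = 0.0318). The groups did not overlap for any of the 3. The call of A930007I19Rik held in all 12 alternative fits, while Gm20559 lost it in 3 (without high glucose library 2 or 3, or high fructose library 1) and 4930430E12Rik in 5. The last were the fit to the 6 libraries alone and the fits without high glucose library 2 or any of the 3 high fructose libraries. Among the proteins, Tardbp (-0.35 ± 0.04), Nolc1 (-0.19 ± 0.04), Ncl (-0.17 ± 0.04) and Magoh (-0.25 ± 0.06) were lower in high fructose than in high glucose.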

How the data were processed

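RNA was measured in 12 libraries of N9 cells. The authors deposited unnormalised counts for each Ensembl gene, which come from featureCounts 1.5.0-p3 and mm10 per the submitters' processing notes, and FPKM values made by the authors from the same counts. The sources used here name neither the aligner nor the strand setting. Classes and coordinates came from the count table.

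Counts were tested with edgeR 4.0.16 (R 4.3.3): TMM factors, filterByExpr, 1 quasi-likelihood fit to all 12 libraries, Benjamini-Hochberg adjustment over 12766 genes, and a threshold of 0.05. Errors are standard errors of the log2 fold change, derived from its size and the quasi-likelihood F statistic rather than estimated separately. CPM are scaled by the TMM factors. The fit was also run on simulated counts in which all genes had the same spread and the changes were large. That run could not show how the fit performs for genes of wide spread or small change. Alternatives used DESeq2 1.42.0, other scalings, filters and thresholds, a replicate block, and each library left out. Exon overlap and hosted RNAs were read from GENCODE M21, shared sequence from BLAST+ 2.17.0+ (at least 75 bases at 98% identity), and promoters from RefSeq (GRCm38.p6). Of the 155 genes, 154 were in GENCODE M21.

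The members and lists were chosen with earlier results of these data known. Genes were named by rule: called genes of largest change without overlap of libraries, the highest FPKM, those beside the threshold, those of smallest p in each list, and a fixed set of well-known RNAs. Firre, Smg1, Smg6 and other list genes were named after their values were seen, and some list genes are not reported here. Counts are not molecules, and the depth limits low genes.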

Additional observations from a re-analysis of the deposited data

Results flagged for a closer look

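The effect of high fructose differed from that of high glucose, both under LPS, for 3 of the 155 genes (1.94%), all lower in high fructose. This rests on a direct test of the difference (edgeR, adjusted p below 0.05). Among all 12766 genes tested, 1.88% were lower and 1.84% higher by the same test. Both effects are measured against the same LPS libraries. The log2 difference, high fructose minus high glucose, was -0.9478 for A930007I19Rik, -0.5089 for Gm20559 and -0.2413 for 4930430E12Rik. All 3 high fructose libraries lay below all 3 high glucose libraries for each gene. The call of A930007I19Rik held in all 12 alternative fits, while Gm20559 lost it in 3 and 4930430E12Rik in 5. In these genes high glucose gave log2 fold changes against LPS of -0.06, 0.10 and -0.04, none of them called.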

How the results depend on the processing

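Of 39 called values, 28 kept their call in every alternative fit, 11 lost it in at least 1 and 0 reversed. The 20 rises under LPS became 8 at a threshold of 200 counts (48 genes) and 10 without genes whose exons overlap the other strand (97 genes), where fewer genes were counted; the 10 falls became 16 with library totals alone. For high glucose, 3 genes were higher without the low-count filter. For high fructose, the single rise became 2 without the filter and 0 with DESeq2, with the 6 libraries alone or without overlapping genes, and the 5 falls became 2 at 200 counts and 3 without overlapping genes. Against high glucose, the 3 falls became 7 without the filter. The causes of the changes with scaling, filter or tool were not tested.

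With a library left out, LPS gave 19 to 24 rises and 8 to 10 falls, high glucose 0 and 0, high fructose 0 to 1 rises and 2 to 4 falls, and high fructose against high glucose 0 rises and 1 to 3 falls. Small LPS values changed sign. With a library left out, Gas5 ranged from -0.0051 to 0.33, Dleu2 from -0.0030 to 0.56, Pvt1 from -0.12 to 0.32, Tug1 from -0.055 to 0.10 and Neat1 from -0.13 to 0.26, and library totals alone gave -0.059 for Tug1 and -0.050 for Neat1. The cause was not tested.

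Deviations from the group mean were correlated between libraries over all genes tested. Of 18 same-numbered pairs, 5 had r above 0.1, with a range of -0.19 to 0.24, and pairs of unlike number ranged from -0.23 to 0.19. For 1 of 12 libraries, the same-numbered library was the best match in every other group at once. Whether the numbers mark pairs was not settled by these values, and library 1 was lowest in all 4 groups for 5.28% of all genes tested. With the replicate block, 1 gene was higher in high glucose, 2 were higher in high fructose and 5 were lower in high fructose than in high glucose; Malat1 (0.49), Mir22hg (0.59) and Zfas1 (0.48) were then called under LPS.

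Low counts limit the smallest genes, and reads shared between strands or copies could not be separated.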
